A study of Mus musculus with 66 samples.

Results

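Transcript levels of 42 genes of the Wnt pathway were followed in E14 cells, a mouse embryonic stem cell line, with a deletion at Praf2 and in wildtype (WT) cells. The 42 genes were matched by Ensembl identifier to symbol, and all 42 were found among 55487 gene identifiers in each library. They fall into 15 targets, genes whose transcription answers to Wnt signalling, and 27 components, genes whose products carry the signal. The deletion groups were GDel1 (2 libraries) and GDel2 (2 libraries), which share the genotype label of a G4 deletion at Praf2, a G4 being a G-quadruplex, a 4-stranded fold that nucleic acids rich in guanine can take. The WT group had 3 libraries, and all 7 libraries were untreated. Every culture, WT included, was kept in 15% serum with LIF, 3 µM of a GSK inhibitor and 1 µM of a MEK1/2 inhibitor. Whether GDel1 and GDel2 came from different clones, and replicates from different cultures, is not given in the labels, so p-values measure only the spread between these libraries, which may be technical. The series holds 66 samples, and the other 59 were not analysed here. The question was how the pathway's targets and its components compare between deletion and WT cells, in a medium that acts on the pathway itself.

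Wnt ligands bind Frizzled receptors with the co-receptors Lrp5 and Lrp6 and act through Dishevelled proteins. Without a ligand, a destruction complex of Axin, Apc, casein kinase and glycogen synthase kinase (GSK) marks beta-catenin for breakdown. Once that complex is held back, by a ligand or by a GSK inhibitor, beta-catenin gathers in the nucleus, joins TCF and LEF factors on DNA and raises target genes, several of which damp the pathway again. In mouse embryonic stem cells a GSK inhibitor is widely used to support self-renewal, largely by relieving repression by the factor Tcf7l1 (Tcf3). The libraries measure RNA, not kinase activity or beta-catenin protein. In bulk samples, fewer cells of a type and less RNA per cell cannot be told apart.

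The promoter sequences of 4 members are shown because their RNA carried results below and because the windows differ in the motifs they hold. Sequences and positions are from RefSeq, build GRCm38.p6, and span 250 bases before to 50 bases after an annotated start site, 5′ to 3′. Sp5 lies on the plus strand at chr2:70474673-70474972, Fzd7 on the plus strand at chr1:59481897-59482196, Axin2 on the plus strand at chr11:108920099-108920398 and Lef1 on the plus strand at chr3:131110047-131110346. In Sp5, capitals mark TCF/LEF words (CTTTG and then 2 bases that are each A or T, on either strand). In Axin2 and Lef1, capitals mark G4-type runs (4 runs of at least 3 G, or of C for the other strand, with 1 to 7 bases between them). The bases between may themselves be G (or C), so that 1 long run can count as several. Both marked stretches of Lef1 match in this way only. In Fzd7 both are in capitals.
Sp5: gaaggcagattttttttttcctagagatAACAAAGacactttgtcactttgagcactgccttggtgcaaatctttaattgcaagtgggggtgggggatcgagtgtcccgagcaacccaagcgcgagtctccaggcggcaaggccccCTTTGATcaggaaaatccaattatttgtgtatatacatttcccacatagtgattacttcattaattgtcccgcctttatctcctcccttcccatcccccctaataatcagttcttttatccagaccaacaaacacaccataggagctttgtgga
Fzd7: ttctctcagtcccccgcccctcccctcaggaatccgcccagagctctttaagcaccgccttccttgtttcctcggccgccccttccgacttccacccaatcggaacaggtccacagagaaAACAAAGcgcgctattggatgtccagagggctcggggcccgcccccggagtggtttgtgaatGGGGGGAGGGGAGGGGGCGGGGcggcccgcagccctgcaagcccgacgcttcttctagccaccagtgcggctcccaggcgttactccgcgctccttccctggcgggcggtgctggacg
Axin2: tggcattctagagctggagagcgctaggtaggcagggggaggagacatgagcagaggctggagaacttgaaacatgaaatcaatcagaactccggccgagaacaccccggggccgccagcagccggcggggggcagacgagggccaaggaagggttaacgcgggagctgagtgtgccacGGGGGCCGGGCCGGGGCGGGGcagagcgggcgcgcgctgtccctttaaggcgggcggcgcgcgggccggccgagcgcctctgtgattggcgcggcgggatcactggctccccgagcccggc
Lef1: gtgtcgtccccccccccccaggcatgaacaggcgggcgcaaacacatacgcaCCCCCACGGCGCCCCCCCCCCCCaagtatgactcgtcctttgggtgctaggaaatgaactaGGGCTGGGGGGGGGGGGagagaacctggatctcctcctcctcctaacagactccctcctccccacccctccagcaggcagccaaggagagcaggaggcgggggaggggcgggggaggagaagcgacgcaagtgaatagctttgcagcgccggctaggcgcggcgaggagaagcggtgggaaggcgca

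The Sp5 window held 2 TCF/LEF words, 222 and 104 bases before the start site, and the Fzd7 window held 1, 130 bases before it. The Axin2 window and the Lef1 window shown held no such word. Of the 42 members, 27 had at least 1 window, 37 windows in all. A TCF/LEF word stood in 8 of these 37 windows (21.6%), in 16.9% of all 32851 promoter windows and in 11.5% of the 12994 windows of genes tested here. Of the 32 windows of members that were themselves tested, 5 (15.6%) held the word. G4-type runs stood in 18 of the 37 (48.6%), in 18.6% of all windows, in 27.8% of the windows of genes tested and in 50% of those of members tested. A match describes letters in these windows, and its absence says nothing of more distant elements.

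In WT cells the median component stood far above the median target in TPM, the deposited unit, which is scaled for transcript length and depth. The component Ctnnb1, which encodes beta-catenin, was the member with the most RNA at 267 ± 29.6 TPM (SD, n = 3), followed by Csnk1a1, a casein kinase of the destruction complex, at 125 ± 15.3 TPM. Tcf7l1 had 41.3 ± 6.08 TPM, Apc 37.4 ± 5.15 TPM, Gsk3a 34.1 ± 4.91 TPM and Gsk3b 20.8 ± 2.73 TPM. The highest targets were Tcf7 at 13.8 ± 1.57 TPM, Notum at 10.6 ± 1.39 TPM, Cdx1 at 9.49 ± 1.53 TPM and Apcdd1 at 8.90 ± 1.31 TPM. The WT libraries of Notum, Cdx1 and Apcdd1 overlapped, while Tcf7 lay above them in all 3. Among targets used as reporters of the pathway, Axin2 had 5.61 ± 1.27 TPM, against 0.70 ± 0.0889 TPM for Sp5 and 0.337 ± 0.0666 TPM for Lef1. The median target in WT was at 0.513 TPM and the median component at 8.63 TPM.

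**Figure D1:**
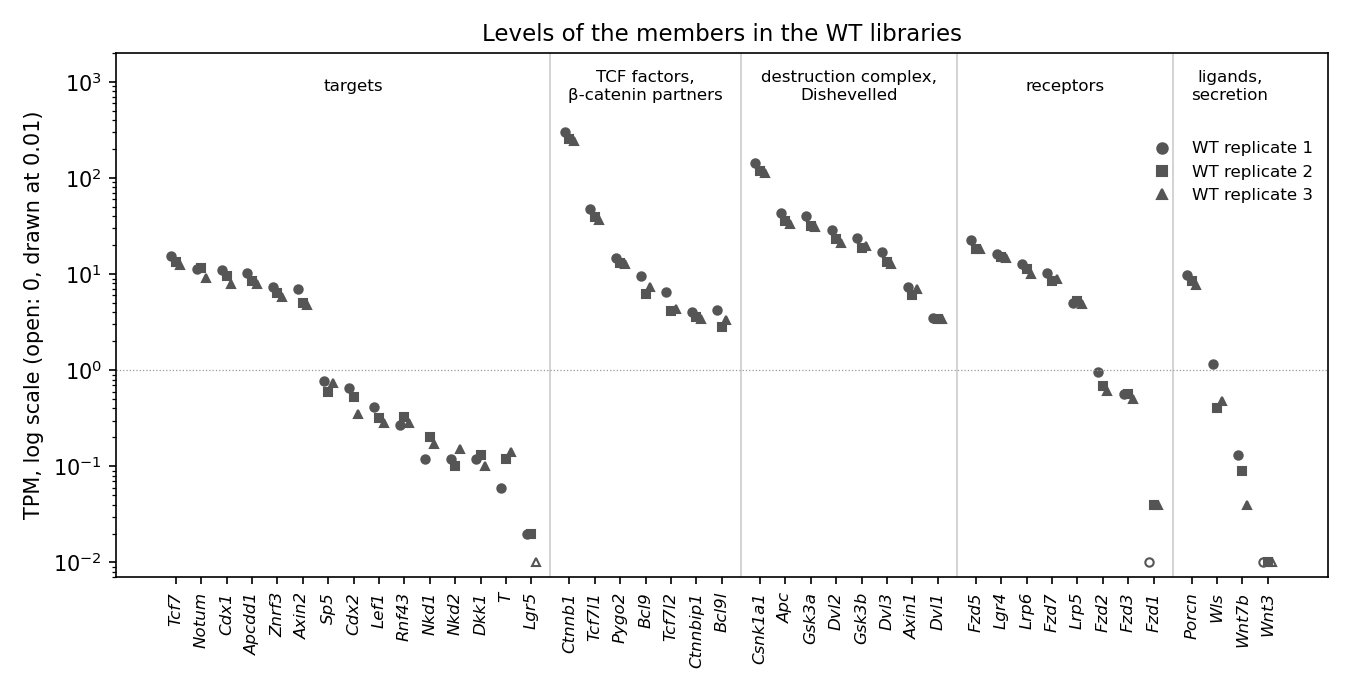
TPM of the 42 members in each of the 3 WT libraries (log scale; open marks stand for 0 and are drawn at 0.01), grouped by role and ordered by mean. Ctnnb1 stands highest at 267 TPM on average, and the targets run downward from Tcf7 at 13.8 TPM.

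Depth ran from 12316853 to 18762704 expected counts per library, and 35 of the 42 members passed the filter on low counts, along with the other genes tested (15421 in all). Praf2 itself was at 10.1 and 9.26 CPM (counts scaled to a common library size) in GDel1 and 13.1 and 14.1 CPM in GDel2, against 27.5, 28.8 and 30.6 CPM in WT (edgeR adjusted p = 0.00206 for GDel1 and 0.000201 for GDel2). Mitochondrial transcripts took 9.91% and 4.83% of counts in GDel1 replicates 1 and 2, 6.19% and 9.60% in GDel2 replicates 1 and 2, and 6.30% to 6.89% in WT. Replicates of GDel1 lay farthest apart (chi-square per degree of freedom 67.8, against 22.3 in GDel2 and 4.79 to 7.23 in WT). The 7 members that did not pass the filter were the targets Nkd2, Lgr5, Dkk1 and T, the receptor Fzd1 and the ligands Wnt3 and Wnt7b.

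Of the 11 targets that passed the filter, 6 fell in GDel2 against WT at an adjusted p under 0.05, where 15.6% of all genes tested fell. The steepest falls among the 11 were those of Lef1, Sp5, Cdx2 and Apcdd1. The test called none of the 11 higher, where 17.4% of all genes tested rose, while 1 was higher at an unadjusted p under 0.05 (22.7% of all genes) and DESeq2 called none (13.4% of its genes). Over all 35 members that passed, 18 changed, 16 lower and 2 higher, against 33.1% of all genes tested. Both GDel2 libraries lay below all WT libraries for 22 of the 35, where 31% of all genes did so, and above them for 4, where 32.2% did so.

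Apcdd1, a membrane-bound inhibitor of Wnt signalling, had 11.8 and 10.3 CPM in GDel2, against 42.2, 43.9 and 37.8 CPM in WT. It stood between them in GDel1, at 27.4 and 23.5 CPM, and no deletion library reached the lowest WT library. The log2 fold change was -1.90 ± 0.13 (SE) in GDel2, a 3.72-fold lower level (adjusted p = 2.96e-05). Axin2, a scaffold of the destruction complex and the feedback target most often used as a reporter, had 20.4 and 23.1 CPM in GDel1 and 16.8 and 12.9 CPM in GDel2, against 25.9, 24.0 and 25.5 CPM in WT. It fell by 0.76 on the log2 scale in GDel2 (SE 0.14, adjusted p = 0.00316), and the 4 deletion libraries all lay below WT. Notum, a secreted enzyme that strips the lipid from Wnt ligands, had 19.7 and 18.8 CPM in GDel1 and 14.6 and 13.6 CPM in GDel2, against 19.9, 19.9 and 18.1 CPM in WT. By CPM only its GDel2 libraries lay below WT, and it fell by 0.45 there (SE 0.11, adjusted p = 0.0138). That call was lost in 4 of 16 other settings, among them those without GDel2 replicate 2, WT replicate 1 or WT replicate 2. In TPM, a scale on which the median gene fell in GDel1, both GDel1 libraries of Notum lay below WT too, at 6.46 and 6.56 TPM against 11.3, 11.5 and 9.03 TPM.

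Lef1, a DNA-binding partner of beta-catenin that is itself a target, had 1.05 and 1.51 CPM in GDel1 and 0.316 and 0.0723 CPM in GDel2, against 1.32, 1.42 and 1.31 CPM in WT. These are few reads: 4 and 1 counts in GDel2, against 18, 23 and 25 counts in WT. By CPM GDel1 overlapped WT and GDel2 did not, with a log2 fold change of -2.79 ± 0.51 (SE) in GDel2 (adjusted p = 0.00371). Sp5, a zinc finger factor that represses other Wnt targets, had 0.805 and 1.56 CPM in GDel1 and 0.237 and 0.506 CPM in GDel2, against 2.06, 1.92 and 2.31 CPM in WT. All deletion libraries lay below WT, and Sp5 fell by 2.46 on the log2 scale in GDel2 (SE 0.43, adjusted p = 0.00304), from 3 and 7 counts there. Cdx2, a caudal factor of trophoblast and posterior body, had 0.805 and 0.781 CPM in GDel1 and 0.395 and 0.361 CPM in GDel2, against 1.91, 1.86 and 1.21 CPM in WT. It too lay below WT in every deletion library, and it fell by 2.10 in GDel2 (SE 0.39, adjusted p = 0.00403).

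Targets that did not pass the threshold in GDel2 ran in both directions. Cdx1, the related caudal factor, had 16.3 and 12.5 CPM in GDel1 and 20.8 and 15.5 CPM in GDel2, against 24.1, 25.1 and 20.5 CPM in WT (log2 fold change -0.35 in GDel2, adjusted p = 0.144). Rnf43 and Znrf3 are ubiquitin ligases that remove Frizzled from the cell surface. Rnf43 had 0.885 and 1.25 CPM in GDel1 and 0.395 and 0.506 CPM in GDel2, against 1.18, 0.742 and 1.10 CPM in WT (-1.14 in GDel2, adjusted p = 0.0642). Znrf3 had 38.6 and 35.9 CPM in GDel1 and 63.4 and 56.5 CPM in GDel2, against 50.8, 50.7 and 46.8 CPM in WT (0.28 in GDel2, adjusted p = 0.0505). Neither group overlapped WT for Znrf3, GDel1 lying below it and GDel2 above it, although GDel2 overlapped WT in TPM. Tcf7, a TCF factor and target, had 32.0 and 38.0 CPM in GDel1 and 55.7 and 40.7 CPM in GDel2, against 49.1, 50.9 and 46.0 CPM in WT (-0.01 in GDel2, adjusted p = 0.947). Nkd1, an inhibitor that binds Dishevelled, had 0.241 and 0.416 CPM in GDel1 and 0.789 and 0.795 CPM in GDel2, against 0.368, 0.742 and 0.683 CPM in WT (0.38 in GDel2, adjusted p = 0.544).

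The 4 targets under the filter had few reads. Dkk1, a secreted inhibitor that binds Lrp6, had 4 and 4 counts in GDel1 and 2 and 4 in GDel2, against 5, 8 and 7 counts in WT. T, the mesoderm factor Brachyury, had 10 and 9 counts in GDel1 and 5 and 3 in GDel2, against 2, 4 and 8 counts in WT. Nkd2, a relative of Nkd1, had 65 counts in all, 28 of them in GDel2 replicate 2. Lgr5, a receptor for R-spondins and a marker of intestinal stem cells, had 9 counts over all 7 libraries. By CPM, Dkk1 lay below WT in all 4 deletion libraries, Nkd2 lay below WT and T above it in both GDel1 libraries, and the other groups overlapped WT. These genes were left out of the test for their low counts.

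**Figure D2:**
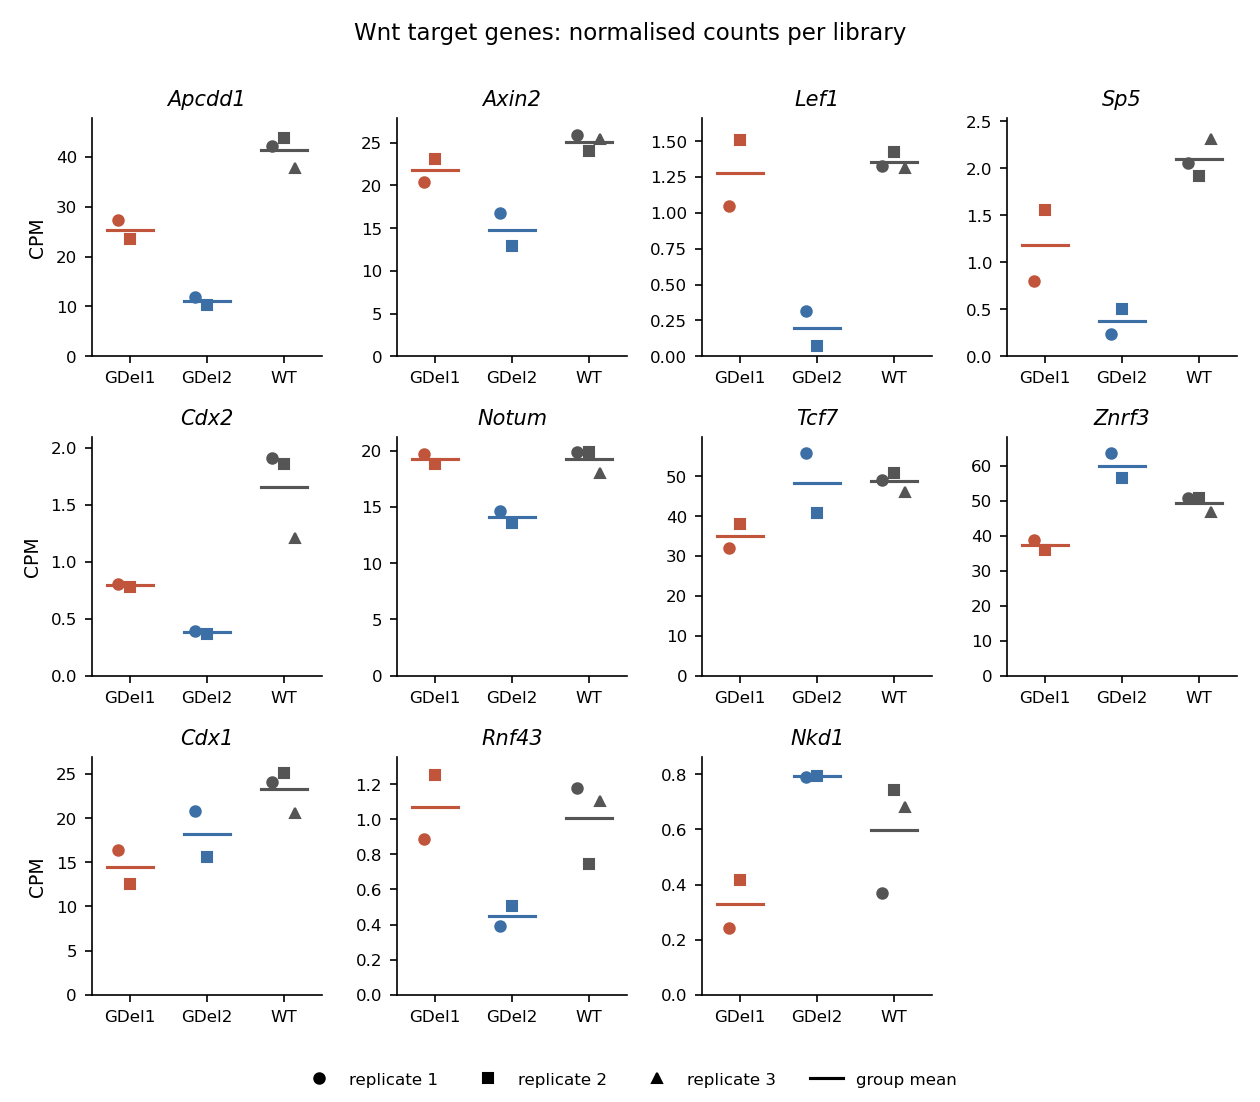
CPM of the 11 measured Wnt targets in each library of GDel1, GDel2 and WT (marks show replicates, lines show group means, each axis starts at 0). Apcdd1, Axin2, Sp5 and Cdx2 lie below WT in all 4 deletion libraries, while Znrf3 lies below WT in GDel1 and above it in GDel2.

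Among the 7 TCF factors and beta-catenin partners, 4 fell in GDel2, where 15.6% of all genes tested fell, and Ctnnb1 itself overlapped WT by CPM. The 4 were Tcf7l2, Bcl9l, Ctnnbip1 and Bcl9. Tcf7l2, a TCF factor, had 9.82 and 13.2 CPM in GDel1 and 10.4 and 7.95 CPM in GDel2, against 22.8, 20.7 and 20.2 CPM in WT. The 2 deletion groups overlapped each other and lay wholly below WT, with a fall of 1.21 on the log2 scale in GDel2 (SE 0.17, adjusted p = 0.00102). Bcl9 and Bcl9l are adaptors that tie beta-catenin to Pygopus. Bcl9l had 14.4 and 17.7 CPM in GDel1 and 14.1 and 10.3 CPM in GDel2, against 28.1, 23.7 and 24.9 CPM in WT, and fell by 1.07 in GDel2 (SE 0.17, adjusted p = 0.00162). Bcl9 had 25.3 and 36.4 CPM in GDel1 and 38.0 and 30.4 CPM in GDel2, against 48.1, 48.3 and 45.8 CPM in WT. All 4 deletion libraries of both adaptors lay below WT, but the Bcl9 call in GDel2 (-0.47, adjusted p = 0.0498) sat at the threshold and was lost under 11 of 16 other settings.

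Ctnnbip1 (ICAT), which keeps beta-catenin from binding TCF factors, had 13.7 and 11.3 CPM in GDel1 and 7.97 and 8.75 CPM in GDel2, against 13.98, 14.8 and 14.02 CPM in WT. It fell by 0.77 in GDel2 (SE 0.14, adjusted p = 0.00298). Ctnnb1 had 921 and 794 CPM in GDel1 and 667 and 743 CPM in GDel2, against 739, 746 and 724 CPM in WT. GDel2 overlapped WT for Ctnnb1 (-0.06, adjusted p = 0.671), and both GDel1 libraries lay above it (0.22, adjusted p = 0.210). In TPM, which falls as other transcripts take a larger share, both GDel1 libraries lay below WT instead, at 226 and 181 TPM against 300, 256 and 244 TPM. Both GDel2 libraries lay below WT on that scale too, at 232 and 238 TPM. Tcf7l1, the repressor TCF of these cells, had 41.1 and 73.0 CPM in GDel1 and 96.4 and 54.4 CPM in GDel2, against 107, 107 and 103 CPM in WT. Every deletion library was below WT, yet replicates were so far apart that neither the GDel1 value (-0.88 ± 0.31 SE, adjusted p = 0.152) nor the GDel2 value (-0.49 ± 0.31 SE, adjusted p = 0.273) passed. In each deletion group the lower Tcf7l1 library was the one with the higher mitochondrial share, whose part in the result was not tested. Pygo2, which reads histone marks as a partner of Bcl9, was at -0.56 in GDel2 (adjusted p = 0.0774).

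Of the 8 genes of the destruction complex, whose GSK kinases are inhibited in the medium, and of Dishevelled, 5 fell in GDel2, where 15.6% of all genes tested fell: Gsk3b, Gsk3a, Apc, Dvl2 and Dvl3. Gsk3b had 159 and 148 CPM in GDel1 and 120 and 122 CPM in GDel2, against 169, 179 and 173 CPM in WT, and fell by 0.52 in GDel2 (SE 0.08, adjusted p = 0.00162). Gsk3a had 74.6 and 78.5 CPM in GDel1 and 83.1 and 68.2 CPM in GDel2, against 111, 106 and 103 CPM in WT. Gsk3a fell by 0.50 in GDel2 (SE 0.10, adjusted p = 0.00652). The call was lost in 4 of 16 other settings, among them that without GDel2 replicate 2 and both limma fits on log2 TPM. Both kinase genes were below WT in all 4 deletion libraries, Gsk3a at -0.48 in GDel1 and Gsk3b at -0.18. Apc, the scaffold that binds beta-catenin, had 283 and 300 CPM in GDel1 and 257 and 277 CPM in GDel2, against 356, 340 and 325 CPM in WT. It fell by 0.35 in GDel2 (SE 0.09, adjusted p = 0.0149). That call was lost in 6 of 16 other settings, among them both limma fits and those without GDel2 replicate 1, WT replicate 1 or WT replicate 2. Axin1, the constitutive scaffold (-0.31, adjusted p = 0.224), and Csnk1a1 (-0.16, adjusted p = 0.165) did not pass.

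Dishevelled proteins relay the signal from receptor to destruction complex. Dvl2 had 71.2 and 73.2 CPM in GDel1 and 64.8 and 53.9 CPM in GDel2, against 94.4, 89.1 and 85.6 CPM in WT, and fell by 0.60 in GDel2 (SE 0.10, adjusted p = 0.00268). Dvl3 had 32.5 and 56.2 CPM in GDel1 and 50.6 and 27.0 CPM in GDel2, against 88.0, 82.6 and 76.4 CPM in WT. It fell by 1.09 in GDel2 (SE 0.32, adjusted p = 0.0438). That call was lost in 7 of 16 other settings, among them both limma fits and those without GDel2 replicate 2 or any 1 WT library. As with Tcf7l1, the lower library of each deletion group was the one with more mitochondrial transcripts. Dvl1 was at 0.00 in GDel2 (adjusted p = 0.994) and overlapped WT in both groups by CPM.

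**Figure D3:**
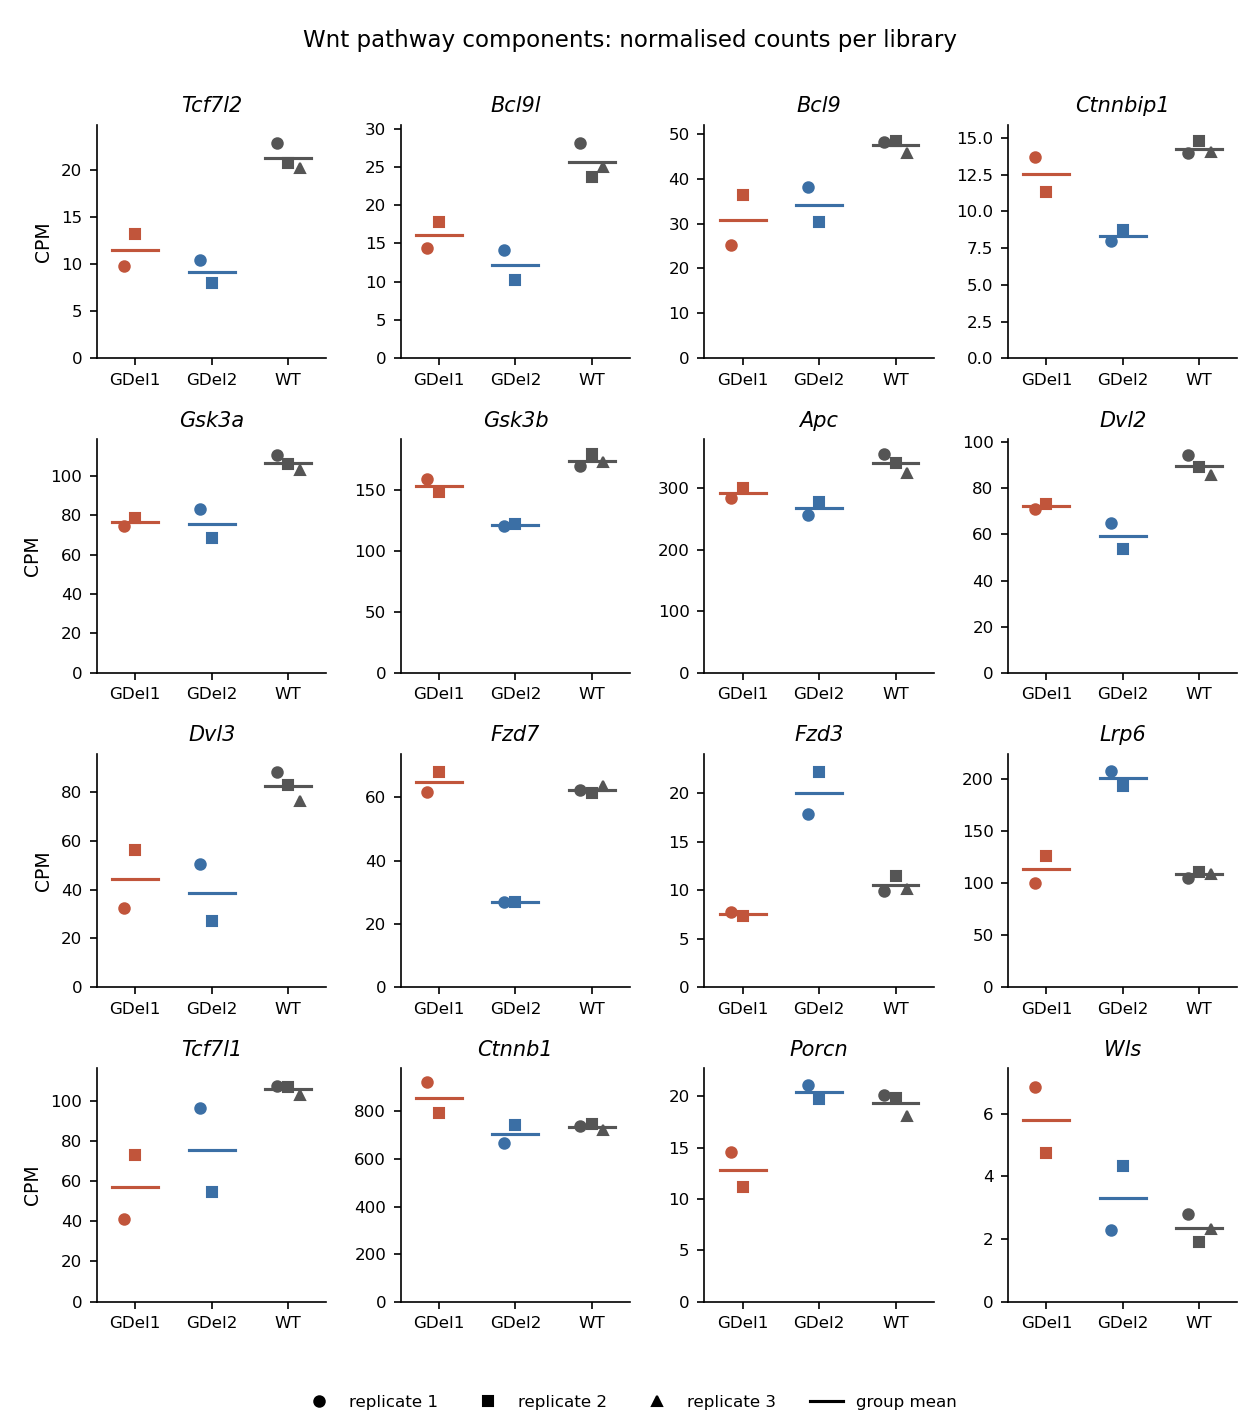
CPM of 16 pathway components in each library of GDel1, GDel2 and WT (marks show replicates, lines show group means, each axis starts at 0). Fzd7 is lower and Lrp6 and Fzd3 are higher in GDel2, while Tcf7l1 and Dvl3 differ widely between the replicates of each deletion group.

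Of the 7 receptors measured, 1 fell and 2 rose in GDel2, beside 15.6% of all genes tested lower and 17.4% higher, counts too near those shares to describe receptors as a group. Fzd7, the Frizzled best known for its role in pluripotent cells, had 61.7 and 68.2 CPM in GDel1 and 27.1 and 26.8 CPM in GDel2, against 62.5, 61.4 and 63.5 CPM in WT. By CPM GDel1 and WT overlapped and both GDel2 libraries stood apart, 2.32-fold lower (log2 fold change -1.21 ± 0.09 SE, adjusted p = 5.14e-05). In TPM both GDel1 libraries lay below WT as well, at 6.45 and 7.64 TPM against 10.4, 8.51 and 8.95 TPM. Lrp6, the co-receptor, had 101 and 127 CPM in GDel1 and 209 and 194 CPM in GDel2, against 105, 111 and 109 CPM in WT, and rose by 0.89 in GDel2 (SE 0.11, adjusted p = 0.000422). Fzd3, a Frizzled known from axon guidance, had 7.81 and 7.39 CPM in GDel1 and 17.8 and 22.2 CPM in GDel2, against 9.94, 11.5 and 10.2 CPM in WT. It rose by 0.92 in GDel2 (SE 0.14, adjusted p = 0.00128), while both GDel1 libraries lay below WT (-0.47, adjusted p = 0.1). Fzd5, a Frizzled known from yolk sac vessels, had 161 and 166 CPM in GDel1 and 227 and 206 CPM in GDel2, against 208, 204 and 196 CPM in WT (0.10 in GDel2, adjusted p = 0.412). Lgr4, the R-spondin receptor expressed here (-0.20, adjusted p = 0.103), Lrp5, the other co-receptor (-0.41, adjusted p = 0.337), and Fzd2 (-0.08, adjusted p = 0.814) did not pass in GDel2. Fzd1 had 25 counts over the 7 libraries.

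The 2 ligands of the list had few counts, while both genes needed to send ligands out were measured. Porcn, the acyltransferase that attaches the lipid to Wnt ligands, had 14.6 and 11.1 CPM in GDel1 and 21.1 and 19.7 CPM in GDel2, against 20.2, 19.8 and 18.1 CPM in WT. Only GDel1 lay below WT (-0.60, adjusted p = 0.0607). Porcn lies on the X chromosome, 463 kb from Praf2. Wls, the carrier that brings Wnt ligands to the surface, had 6.84 and 4.74 CPM in GDel1 and 2.29 and 4.34 CPM in GDel2, against 2.80, 1.92 and 2.31 CPM in WT. Both GDel1 libraries were above WT by this count (1.30, adjusted p = 0.0607), but in TPM they had 1.13 and 0.93, within the WT values of 1.15, 0.40 and 0.48 TPM. Wnt7b had 6 and 4 counts in GDel1 and 0 counts in each GDel2 library (a count of 0 allows up to 3), against 7, 7 and 4 counts in WT, and Wnt3 had 6 counts over all 7 libraries.

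GDel1 against WT, which shares the WT libraries with the GDel2 comparison, gave no call among the 35 members, where 0.376% of all genes tested were called by edgeR (0.214% lower and 0.162% higher). At an unadjusted p under 0.05, 17 members were lower and 1 was higher, against 11.9% and 12.6% of all genes. DESeq2 called 10 members, all lower, against 4.37% of its genes lower and 5.52% higher. Just past the threshold, at adjusted p between 0.05 and 0.07, lay 8 members. They included Apcdd1 (-0.70, adjusted p = 0.0515), Tcf7l2 (-0.87, adjusted p = 0.0528), Gsk3a (-0.48, adjusted p = 0.0572), Znrf3 (-0.41, adjusted p = 0.0633), Bcl9l (-0.66, adjusted p = 0.0652) and Cdx1 (-0.70, adjusted p = 0.0675). No overlap with WT was seen for 20 members below it and 2 above it, where 22.6% and 20.9% of all genes did so. The count depended on the libraries kept, for members and for all genes. Without GDel1 replicate 1, 6 members passed, all lower, beside 4.87% of all genes lower and 7.69% higher. Without GDel1 replicate 2, 5 were lower and 1 was higher, beside 3.18% and 2.2% of all genes. Without both GDel1 replicate 1 and GDel2 replicate 2, the deletion libraries with the most mitochondrial transcripts, 15 were lower and 4 higher, beside 12% and 14.3% of all genes. In these fits the lone GDel1 library was assumed to vary like the other groups.

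Taken as 1 group of 4 libraries, the deletion cells gave no call for any gene, so that 0% of the genes tested stood behind 0 of 35 members. At an unadjusted p under 0.05, 15 members were lower and 1 was higher, against 9.27% and 9.73% of all genes, and DESeq2 called 8 members, all lower, against 4.33% of its genes lower and 4.3% higher. The smallest unadjusted p among members was that of Tcf7l2 (log2 fold change -1.03 ± 0.17 SE, adjusted p = 0.144), followed by Gsk3a (-0.49 ± 0.10 SE, adjusted p = 0.144) and Bcl9l (-0.85 ± 0.18 SE, adjusted p = 0.144). All 4 deletion libraries lay below all 3 WT libraries for 14 members that passed the filter, where 12% of all genes did so. These were Axin2, Sp5, Cdx2, Apcdd1, Ctnnbip1, Tcf7l1, Tcf7l2, Bcl9, Bcl9l, Apc, Gsk3a, Gsk3b, Dvl2 and Dvl3. No member lay above WT in all 4, where 9.73% of all genes did so.

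GDel2 and GDel1 differed from each other in 13 of the 35 members, 8 lower and 5 higher in GDel2, against 27.7% of all genes called (12.8% lower and 14.8% higher). The targets Lef1 (log2 fold change -2.73 ± 0.54 SE, adjusted p = 0.00661), Sp5 (-1.68 ± 0.49, adjusted p = 0.0323), Apcdd1 (-1.19 ± 0.14, adjusted p = 0.000464), Axin2 (-0.56 ± 0.15, adjusted p = 0.0220) and Notum (-0.45 ± 0.12, adjusted p = 0.0225) were lower in GDel2 than in GDel1. Among components, Fzd7 (-1.27 ± 0.10, adjusted p = 7.24e-05), Ctnnbip1 (-0.58 ± 0.15, adjusted p = 0.0197) and Gsk3b (-0.34 ± 0.09, adjusted p = 0.0203) were lower. The Gsk3b call was lost in 7 of 16 other settings, those of Ctnnbip1 and Notum in 6, that of Axin2 in 5 and that of Sp5 in 10 of 15. Higher in GDel2 than in GDel1 were the receptors Fzd3 (1.40 ± 0.16, adjusted p = 0.000429), Lrp6 (0.82 ± 0.12, adjusted p = 0.00143) and Fzd5 (0.40 ± 0.09, adjusted p = 0.0124). The target Znrf3 (0.69 ± 0.11, adjusted p = 0.00198) and Porcn (0.68 ± 0.15, adjusted p = 0.0107) were higher as well. For Tcf7l2 (-0.34 ± 0.19, adjusted p = 0.215), Gsk3a (-0.02 ± 0.11, adjusted p = 0.923) and Bcl9 (0.14 ± 0.17, adjusted p = 0.583) a difference between the deletion groups did not pass.

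**Figure D4:**
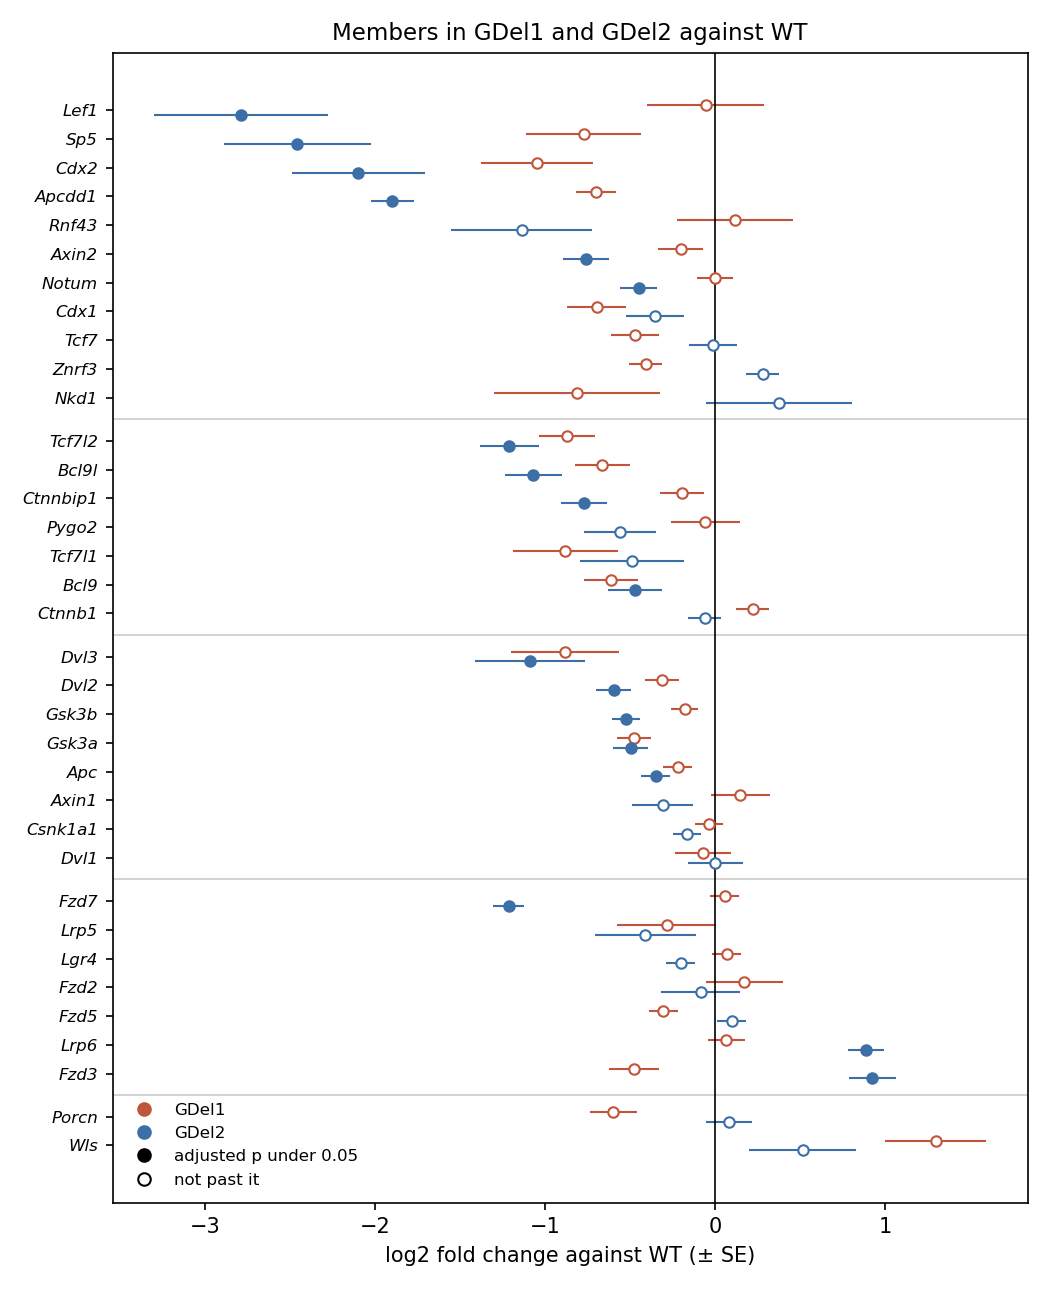
Log2 fold change against WT with its SE for the 35 measured members in GDel1 and GDel2, grouped by role in the order targets, TCF factors and beta-catenin partners, destruction complex and Dishevelled, receptors, and ligand secretion. Filled marks passed an adjusted p under 0.05: 18 members in GDel2 and 0 in GDel1.

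Set side by side, targets lay further below WT than components in the count-based fit, on medians that depended on the filter, the scale and single libraries. The median log2 fold change in GDel2 was -0.76 over the 11 measured targets and -0.38 over the 24 measured components, beside 0.01 over all genes tested. In GDel1 the medians were -0.47 for targets, -0.21 for components and 0.00 for all genes. In GDel2, 6 of the 11 targets fell and none rose, and 10 of the 24 components fell and 2 rose, where 15.6% of all genes tested fell and 17.4% rose. At a minimum count of 50, which keeps 6 targets, the medians in GDel2 were -0.39 for targets and -0.37 for components, while in GDel1 they were -0.45 and -0.22. Without GDel2 replicate 1 the GDel2 medians were -0.59 for targets and -0.54 for components, and without GDel1 replicate 2 they were -0.45 and -0.39, with 13 targets past the filter in both fits. On the log2(TPM + 0.1) scale the GDel2 medians were -0.84 for targets and -0.53 for components, which kept the order of the lists. On the log2(TPM + 1) scale they were -0.40 for targets and -0.44 for components, so that the order turned. That scale also moved the median of all genes to -0.30 in GDel1 and -0.05 in GDel2, and relative to that shift targets were at -0.26 and components at -0.31 in GDel1. Per library, the median deviation from the WT mean over the components was -0.33 and -0.21 in GDel1 replicates 1 and 2 and -0.18 and -0.52 in GDel2 replicates 1 and 2. The larger value in each group belonged to the library with more mitochondrial transcripts, and the part of that share was not tested. Without the 2 libraries of highest share, 22 members were called in GDel2, 18 lower and 4 higher, beside 17.5% and 19% of all genes.

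Genes near a member on its chromosome had shifted in GDel2 for a few of the 42. Around Lrp6 on chromosome 6, the 29 genes measured within 5 Mb had a median log2 fold change of 0.58 in GDel2 against WT, beside 0.89 for Lrp6, and the whole chromosome had a median of 0.51. Tcf7l1 lies on the same chromosome, with a local median of 0.49 beside its own -0.49. Nkd1 on chromosome 8 was at 0.38, beside a local median of 0.39. On chromosome 11, Tcf7 was at -0.01 beside a local median of 0.55, and Znrf3 at 0.28 beside 0.35, while Axin2 lay among genes with a median of 0.00. The local medians of Lef1 (0.04), Apcdd1 (-0.11), Cdx2 (-0.12), Fzd7 (0.07), Tcf7l2 (0.01) and Fzd3 (-0.03) were small beside their own values. Subtracting the local median left Lrp6 at 0.30 and Tcf7l1 at -0.98.

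**Figure D5:**
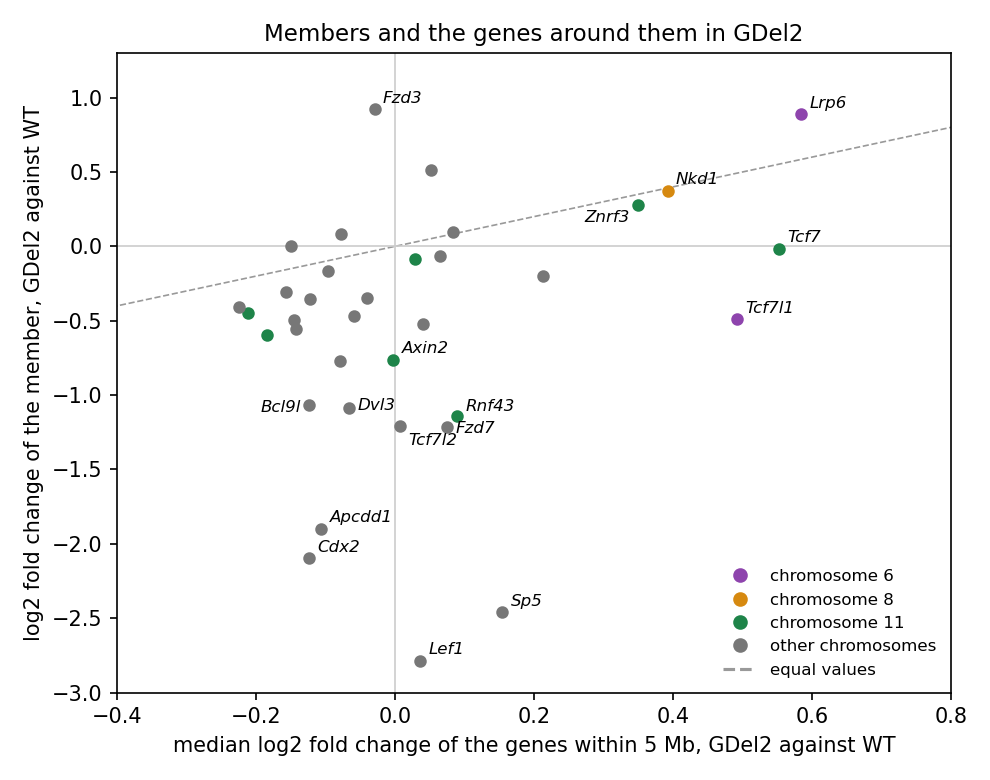
Log2 fold change of each measured member in GDel2 against WT, plotted against the median log2 fold change of the genes measured within 5 Mb of it (the dashed line marks equal values). Lrp6, Znrf3, Nkd1, Tcf7 and Tcf7l1 sit among genes that were higher in GDel2, while Lef1, Sp5, Cdx2 and Apcdd1 lie far below their neighbours.

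Markers of the labelled cell type were high in every library, with 8 naive pluripotency markers summing to 4671 to 5489 CPM in GDel1 and 4139 to 4444 CPM in GDel2, against 5010 to 5074 CPM in WT. The 8 mesendoderm markers summed to 5.83 to 7.003 CPM in GDel1 and 21.3 to 22.4 CPM in GDel2, against 6.72 to 7.36 CPM in WT, with 3 markers measured and Mesp1 and Cer1 at 0 in all libraries. The 6 neuroectoderm markers (2 measured) summed to 14.9 to 17.5 CPM in GDel1 and 30.1 to 31.6 CPM in GDel2, against 17.1 to 20.6 CPM in WT. Primitive endoderm markers (7, with 2 measured) summed to 1.77 to 2.01 CPM in GDel1 and 3.69 to 4.02 CPM in GDel2, against 2.10 to 2.57 CPM in WT. The 6 trophoblast markers (2 measured, Prl3d1 at 0) summed to 7.57 to 10.04 CPM in GDel1 and 4.77 to 6.39 CPM in GDel2, against 13.3 to 13.8 CPM in WT. Fibroblast markers (8, with 3 measured and Col3a1, Postn and Twist2 at 0) summed to 4.91 to 5.99 CPM in GDel1 and 8.10 to 9.63 CPM in GDel2, against 7.72 to 8.91 CPM in WT. Single genes made up most of some sums: Eomes had 17.8 and 16.1 CPM of the mesendoderm sum in GDel2, and Nes had 23.8 and 24.4 CPM of the neuroectoderm sum. Tfap2a had 5.84 and 4.63 CPM of the trophoblast sum in GDel2, against 12.7, 11.9 and 12.1 CPM in WT. Gata4 had 1.97 and 1.45 CPM of the primitive endoderm sum in GDel2, against 0.810, 0.742 and 0.420 CPM in WT. The other measured marker of that list, Pdgfra, overlapped WT. Of the naive markers, edgeR called Nanog and Zfp42 higher in GDel2 and Sox2, Esrrb, Tfcp2l1 and Dppa5a lower, where 17.4% of all genes tested rose and 15.6% fell. Pou5f1 and Klf4 did not pass. The largest fall in CPM among the 8 was that of Tfcp2l1, with 1198 and 1007 CPM of the naive sum in GDel2. In WT it had 1963, 1969.7 and 1858 CPM. Nanog lies on chromosome 6 and Zfp42 on chromosome 8. Genes of these chromosomes had a median log2 fold change of 0.51 and 0.44 in GDel2, beside 0.40 for Nanog and 1.15 for Zfp42. The lower Wnt targets of GDel2, such as Cdx2 and Lef1, stood beside higher mesendoderm, neuroectoderm and primitive endoderm sums and a lower trophoblast sum. The naive sum was lower too, mainly through Tfcp2l1, while single naive markers moved both ways. The part of these cell states in the Wnt results was not tested.

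Beyond the 42 genes, a list of 128 other pathway genes had 85 that passed the filter, of which 46 changed in GDel2 against WT, 27 lower and 19 higher. For this list and each of its sub-lists, the shares of all genes tested are 33.1% changed, 15.6% lower and 17.4% higher. Secreted inhibitors moved both ways: of 8 measured, 2 fell, Dkk3 (log2 fold change -1.77) and Sfrp1 (-0.51), and 3 rose, led by Sfrp5 (1.99) and Sfrp4 (1.78). Sfrp5, which binds Wnt ligands, had 0.563 and 0.572 CPM in GDel1 and 3.55 and 3.25 CPM in GDel2, against 1.03, 0.928 and 0.630 CPM in WT. Other receptors and planar polarity genes were lower for 9 and higher for 2 of 19 measured, led by Prickle2 (-1.74), a planar polarity protein, and Ror2 (-1.28), a receptor for Wnt5a, with Fzd9 (2.00) and Fzd6 (1.27) higher. Fzd9 passed the filter only with the help of its GDel2 libraries (22 and 26 counts, against 3, 9 and 10 in WT), so its call carries no weight. Further targets split as well, with 4 lower and 5 higher of 14 measured and a median log2 fold change of 0.15, beside -0.76 for the 11 measured targets of the 42 genes. Tnfrsf19 (-1.45) and Ascl2 (-1.35), a factor of intestinal stem cells, were lower in GDel2, while Nrcam (2.54) was higher. Of the other ligands and R-spondins, 2 of 21 were measured. Wnt3a (2.32) was called higher in GDel2 by edgeR but not by DESeq2. It had 0.161 and 0.312 CPM in GDel1 and 1.66 and 0.723 CPM in GDel2, against 0.442, 0.247 and 0.0525 CPM in WT. Only its GDel2 libraries, at 21 and 10 counts, reached the minimum count of 10. Wnt3a thus entered the test through the group where it was high, and its call carries no weight. Wnt3a and Fzd9 are both among the 19 counted as higher.

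Intracellular regulators (22 measured) gave 5 lower, led by Dact3 (-0.85) and Macf1 (-0.62), and 5 higher, led by Siah1a (0.56) and Usp34 (0.52), in GDel2. Nuclear cofactors (13 measured) gave 3 lower, led by the acetyltransferases Ep300 (-0.75) and Crebbp (-0.70), and 2 higher, the kinase Hipk2 (0.99) and Pygo1 (0.82). Of 7 genes that Tcf7l1 is known to repress in mouse embryonic stem cells, 4 fell in GDel2 and 1 rose, beside the same shares of 15.6% lower and 17.4% higher over all genes tested. Tfcp2l1, a factor of the naive state, had 1519 and 1778 CPM in GDel1 and 1198 and 1007 CPM in GDel2, against 1963, 1969.7 and 1858 CPM in WT, and fell by 0.81 (adjusted p = 0.00114). Tbx3 fell by 0.57 (adjusted p = 0.00546), and Nanog rose by 0.40 (adjusted p = 0.00956). The genes of chromosome 6, where Nanog lies, had a median of 0.51 in GDel2, so its rise did not exceed theirs. The test called none of these 85 genes in GDel1 against WT, where 20 were lower and 4 higher at an unadjusted p under 0.05, beside 11.9% and 12.6% of all genes. DESeq2 called 8 lower and 1 higher, beside 4.37% and 5.52% of its genes.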

How the data were processed

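Libraries were strand-marked and made after ribosomal depletion, per the labels' protocols. Neither the annotation release nor the strand setting of the counting is given in the sources used here. The 7 deposited tables, 1 per library, hold RSEM results by gene, per the file headers. Expected counts, estimated by the authors' tool per gene and not scaled for depth, were rounded to whole numbers. The deposited TPM, scaled by the authors for effective length and to a fixed sum, gave levels between genes. The deposited FPKM and the deposited lengths in bases were not used. Per the submitters' processing notes, tools of the series include RSEM and STAR, and the build is mm10. Of 55487 identifiers, 55141 had a symbol, and 126 of the 128 other pathway genes were matched.

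Genes were kept by filterByExpr of edgeR (minimum count 10, minimum total 15). Counts were scaled by TMM and tested with the quasi-likelihood F test (robust, 2-sided) of edgeR 4.0.16 in R 4.3.3, with Benjamini-Hochberg adjustment over 15421 genes and an adjusted p under 0.05 as the threshold. GDel1 against WT, GDel2 against WT and GDel2 against GDel1 came from 1 fit of 3 groups. The deletion group of 4 was compared with WT in a fit of 2 groups, where the difference between GDel1 and GDel2 counts as error. CPM are counts scaled by the TMM library size. DESeq2 1.42.0 and limma 3.58.1 (on log2 TPM) served as alternatives, beside other scaling, filters, a replicate block and left-out libraries. Precision is limited by depth for genes with few counts.

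The members, role lists and marker lists were chosen with earlier results of these data known. By rule, values per library were given for every measured target, for components past the threshold in any comparison, and for Ctnnb1, Tcf7l1, Gsk3a and Gsk3b. Of other pathway genes, the 2 largest changes per list and direction in GDel2 against WT were named, except 1 that is not reported here.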

Additional observations from a re-analysis of the deposited data

Results flagged for a closer look

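The 2 deletion groups share a genotype label, and 13 members differed between them by the test of that difference (edgeR, GDel2 minus GDel1, adjusted p under 0.05). Lower in GDel2 were Lef1 (log2 fold change -2.73), Sp5 (-1.68), Fzd7 (-1.27), Apcdd1 (-1.19), Ctnnbip1 (-0.58), Axin2 (-0.56), Notum (-0.45) and Gsk3b (-0.34). Higher in GDel2 were Fzd3 (1.40), Lrp6 (0.82), Znrf3 (0.69), Porcn (0.68) and Fzd5 (0.40). Across 16 other settings, Znrf3, Fzd3, Fzd7 and Lrp6 passed in each, while Sp5, which could be fitted in 15, passed in 5. Gsk3b passed in 9, Ctnnbip1 and Notum in 10 and Axin2 in 11. Of the 35 members that passed the filter, none had 1 deletion library so far from the other 3 that it passed Dixon's 95% critical value for 4 samples. Members under the filter, such as Nkd2 with its high GDel2 replicate 2, were not checked.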

How the results depend on the processing

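No result turned its direction while past the threshold. Of GDel2 against WT, 12 of the 18 member calls held in every setting run: Lef1, Axin2, Sp5, Cdx2, Apcdd1, Ctnnbip1, Tcf7l2, Bcl9l, Gsk3b, Dvl2, Fzd7 and Lrp6. Lef1, Sp5 and Cdx2 ran in 15 settings and not 16, since a minimum count of 50 removed them. Over all single-gene results, 252 of 285 checks in GDel2 against WT and 166 of 206 in GDel2 against GDel1 kept direction and call, and the others kept direction only. The GDel1 counts moved most. DESeq2 called 993 genes and 10 members there, no filter on low counts 2357 and 12, limma on log2(TPM + 1) 3250 and 21, limma on log2(TPM + 0.1) 3531 and 21, and leaving out both libraries of highest mitochondrial share 4262 and 19. A minimum count of 50 gave 29 genes and the fit without robust estimation 33. The TPM fits called 30 and 33 genes higher against 3220 and 3498 lower, and that scaling moved the median of all genes by -0.30 on the log2(TPM + 1) scale. In GDel2 against WT, limma on log2(TPM + 1) called 2604 genes and on log2(TPM + 0.1) 2492. In GDel2 against GDel1, no filter called 21 members, limma on log2(TPM + 1) 8, and leaving out the libraries of highest mitochondrial share 22. The deletion group gave 969 genes and 8 members with DESeq2, 1 gene with no filter, 2 genes with limma on log2(TPM + 1), and 3149 genes and 18 members when the 2 contrasts against WT of the 3-group model were averaged. The cause of these moves was not tested.

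The replicate block gave 1 gene in GDel1, 2296 in GDel2, and 2235 genes with 7 members in GDel2 against GDel1. Same-numbered libraries did not deviate together (correlations from -0.21 to 0.10). In a group of 2 libraries the deviations from the group mean mirror each other, so the check cannot tell whether the numbers pair libraries. Crossing the numbers, an alternative chosen after seeing the data, gave 4197 genes in GDel2 against GDel1.

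The median of targets minus the median of components (log2) depended on the setting. In GDel1 it was -0.26 in the count-based fit, 0.0561 on log2(TPM + 1) and -0.2054 on log2(TPM + 0.1). In GDel2 it was -0.38 in the count-based fit, -0.0993 with no filter, -0.0219 at a minimum count of 50, 0.0417 on log2(TPM + 1), -0.3049 on log2(TPM + 0.1) and -0.7381 without the libraries of highest mitochondrial share. In GDel2 against GDel1 it was -0.33, and -0.1975, 0.176, -0.2308 and -0.2318 with no filter, at a minimum count of 50, on log2(TPM + 1) and without those libraries. For the deletion group it was -0.17, and -0.2281 with members of at least 1 CPM, -0.0854 with no filter, -0.0539 at a minimum count of 50 and 0.0636 on log2(TPM + 1). The median target over the median component, taken in each WT library and then averaged, was 0.0586 in TPM and 0.0362 in CPM.

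Leaving out 1 library at a time gave 4 to 2034 genes and 0 to 6 members in GDel1, and a difference of medians of -0.2939 to -0.175. The ranges were 2643 to 6578 genes, 14 to 21 members and -0.4185 to -0.0508 in GDel2, and 2602 to 5617 genes, 10 to 18 members and -0.4483 to -0.2999 in GDel2 against GDel1. The deletion group stayed at 0 genes and 0 members, with -0.2438 to -0.0528. A lone library of a group was assumed to vary like the other groups. Subtracting the median of its chromosome or of the genes within 5 Mb (the second chosen after seeing the data) moved Lrp6 in GDel2 to 0.38 and 0.30, Dvl2 to -0.70 and -0.41, Gsk3a to -0.37 and -0.35, and, within 5 Mb, Notum to -0.24. Depth limits Lef1, Sp5, Cdx2, Rnf43 and Nkd1, each at 1 to 44 counts per library.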
